A study of Caenorhabditis elegans with 30 samples.

Results

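The endoplasmic reticulum (ER) chaperones and stress sensors described here are 10 Caenorhabditis elegans genes, taken by name from both deposited tables. They are 2 chaperones of the BiP type (hsp-3, hsp-4), 3 disulfide isomerases (pdi-1, pdi-2, pdi-6), calreticulin (crt-1), calnexin (cnx-1) and the stress-sensing genes ire-1, xbp-1 and pek-1. All 10 were found among the 46904 genes of the lithium experiment and the 46778 genes of the ice experiment, and all 10 passed the filter on low counts in every fit.

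The RNA came from whole wild-type N2 worms grown on the OP-50 strain of E. coli, in 30 libraries of 3 per group. In the lithium experiment (12 libraries), worms without training or cold shock spent a night at 20 C or at 15 C on plain agar (NGM) or on plates with 15 mM lithium chloride (LiCl). In the ice experiment (18 libraries), worms were cultivated at 20 C, overnight at 15 C, or overnight at 15 C and then 2 hours at 20 C (shifted). Those worms were either naive or conditioned with butanone, and every library was taken after 2 hours on ice, so the ice experiment holds no group without cold shock. The series presents worms grown at 20 C as cold-sensitive, with forgetting delayed on ice, and worms kept at 15 C as cold-tolerant. Nothing states whether replicates came from separately grown cultures, so p-values measure the spread between libraries.

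The ER folds and modifies proteins that enter the secretory pathway. BiP-type HSP70 chaperones bind unfolded chains, disulfide isomerases form and rearrange disulfide bonds, and calreticulin and calnexin hold glycoproteins until they are folded. When unfolded protein accumulates, the membrane protein IRE-1 splices the mRNA of the transcription factor XBP-1, while the kinase PEK-1 phosphorylates a translation initiation factor and slows protein synthesis. In C. elegans the transcript of hsp-4 is a widely used reporter of the IRE-1 and XBP-1 branch, whereas hsp-3 is expressed more constitutively. Gene-level counts do not separate spliced from unspliced xbp-1.

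Coordinates are those of WBcel235 (ce11), the build named for the files. The BiP genes hsp-3 (WBGene00002007, X:6089028-6092124, minus strand) and hsp-4 (WBGene00002008, II:7350112-7352645, minus strand) lie on different chromosomes. Of the isomerase genes, pdi-1 (WBGene00003962) lies at III:3699739-3701461, pdi-2 (WBGene00003963) at X:4524155-4526536 and pdi-6 (WBGene00015168) at X:7066342-7068563. The lectin chaperone genes are crt-1 (WBGene00000802, V:6098992-6100542) and cnx-1 (WBGene00000567, III:9814364-9817137). Of the sensors, xbp-1 (WBGene00006959) lies at III:4193809-4195358, ire-1 (WBGene00002147) at II:8112243-8124910 and pek-1 (WBGene00003970) at X:11410176-11414887. Exons of crt-1, cnx-1 and ire-1 overlap a protein-coding gene on the opposite strand by 92, 49 and 4 bases, and pdi-2 shares 18 bases with a non-coding RNA on its own strand. The counting's strand setting is not given in the sources used here, so reads in those overlaps could belong to either gene.

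Depth was 10111055 to 27794834 counts per library in the lithium experiment and 9873554 to 30054357 in the ice experiment. Ribosomal RNA genes held 1.08% to 28.4% and 1.49% to 10.1% of counts. The highest shares were on plain agar at 15 C, with 28.4% and 24.2% in replicates 2 and 3, beside 1.31% in replicate 1. On plain agar at 20 C replicates 1 to 3 had 8.14%, 3.35% and 1.4%. With lithium at 15 C they had 1.08%, 13.8% and 1.6%. Levels are CPM, a gene's counts relative to its library's total, scaled by edgeR's TMM factors. Marker lists were set beside the whole-worm label: of 16 germline, 11 intestine and 9 muscle markers, all had counts in every library. In the ice libraries counts were found for 11 to 12 of 12 neuron, 5 to 7 of 7 sperm and 12 to 18 of 18 cuticle and moulting markers. In the lithium experiment these were 12 of 12, 6 to 7 and 15 to 18. A count above 0 is a weak check of the label. Some libraries stood apart in these markers. Replicate 2 of plain agar at 20 C had a summed level of 18 cuticle and moulting genes of 1388 CPM, against 172 and 189 CPM in its partners, and a summed germline level of 4085 CPM against 8296 and 9104. In the ice experiment, letter B at 15 C had summed cuticle levels of 1141 and 1170 CPM, against at most 354 in the other ice libraries. Both libraries of letter E at 20 C had the lowest summed muscle levels (947 and 1063 CPM) and the lowest depths. Letter H had summed germline levels of 2977 to 4853 CPM in its 4 libraries. Letter B had 4258 and 4727 CPM, and naive F at 20 C had 4903 against 13060 in its conditioned partner. Values without such libraries stand beside the results they change most.

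Per kilobase of exon, calreticulin was the most abundant of the 10 transcripts in the lithium experiment and the kinase gene pek-1 the least abundant. Mean levels over the 12 libraries were 524 CPM per kb for crt-1, 223 for xbp-1, 201 for pdi-1, 187 for pdi-2, 168 for hsp-4, 129 for hsp-3, 109 for cnx-1, 78.2 for pdi-6, 36.6 for ire-1 and 16.3 for pek-1. The ranges over the 12 libraries overlapped between every pair of neighbours in this order except pdi-6 and ire-1. The ice experiment gave another order. There pdi-2 (536 CPM per kb) and xbp-1 (519) led, followed by pdi-6 (267), crt-1 (151), pdi-1 (75.9), hsp-4 (70.8), hsp-3 (37.3), cnx-1 (31.1), pek-1 (20.6) and ire-1 (18.9), and the ranges of all neighbours in the order overlapped. The experiments used different library kits and separate tables, so their levels were not compared with each other.

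Overnight lithium at 20 C went with lower transcripts of the BiP gene hsp-3 and of the disulfide isomerase genes pdi-2 and pdi-6. None was called higher. The other BiP gene, hsp-4, was on the other side of 0: its fitted log2 difference was 0.44 (SE 0.20, adjusted p = 0.156, edgeR's quasi-likelihood test with Benjamini-Hochberg adjustment). With 3 of 10 members lower, the background in this comparison was 6.33% of 12392 genes called lower and 12.2% called in either direction. The members were chosen with earlier results of these data known, so setting their count beside the background is no test. The members' median log2 difference was -0.21, beside -0.07 over all genes tested.

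The level of hsp-3 was 445, 436 and 564 CPM on plain agar at 20 C and 289, 290 and 327 CPM with lithium (means 482 and 302). All lithium libraries lay below all control libraries, and the log2 difference was -0.67 (SE 0.14, adjusted p = 0.025, edgeR's quasi-likelihood test). These are whole worms, so fewer cells of a type and less RNA per cell cannot be told apart.

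The gene pdi-2 encodes the disulfide isomerase that is also the beta subunit of the collagen prolyl 4-hydroxylase. Its level was 423, 587 and 555 CPM on plain agar and 284, 251 and 298 CPM with lithium at 20 C. The groups did not overlap, and this was the largest difference among the 10 members (log2 -0.91, SE 0.16, adjusted p = 0.0179, edgeR). For pdi-6, a disulfide isomerase of the P5 type, the controls had 204, 167 and 186 CPM and the lithium libraries 102, 100 and 129 CPM. Here too every lithium library was below every control (log2 -0.75, SE 0.15, adjusted p = 0.0242, edgeR). The third isomerase gene, pdi-1, had 361, 263 and 319 CPM against 320, 320 and 316 CPM, with a log2 difference of 0.02 (SE 0.14, adjusted p = 0.931, edgeR).

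Calreticulin, a calcium-binding chaperone of the lumen, did not pass the test. The level of crt-1 was 970, 1028 and 843 CPM on plain agar and 686, 659 and 739 CPM with lithium, without overlap (log2 -0.45, SE 0.16, adjusted p = 0.0784, edgeR). Calnexin, its membrane-bound relative, lay on the other side of 0: cnx-1 had 211, 190 and 184 CPM against 216, 247 and 236 CPM (log2 0.25, adjusted p = 0.224, edgeR). Groups did not overlap for 5 of the 10 members, beside 33.5% of all genes.

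The stress-sensing genes were within their spread in lithium at 20 C. The transcription factor gene xbp-1 had 362, 464 and 323 CPM on plain agar and 620, 353 and 334 CPM with lithium, so that its log2 difference of 0.19 (SE 0.23) came to -0.15 without lithium replicate 1. Its activator gene ire-1 differed by 0.08 (SE 0.16) and the kinase gene pek-1 by -0.65 (SE 0.35), with adjusted p-values of 0.752 and 0.21 in edgeR.

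**Figure D1:**
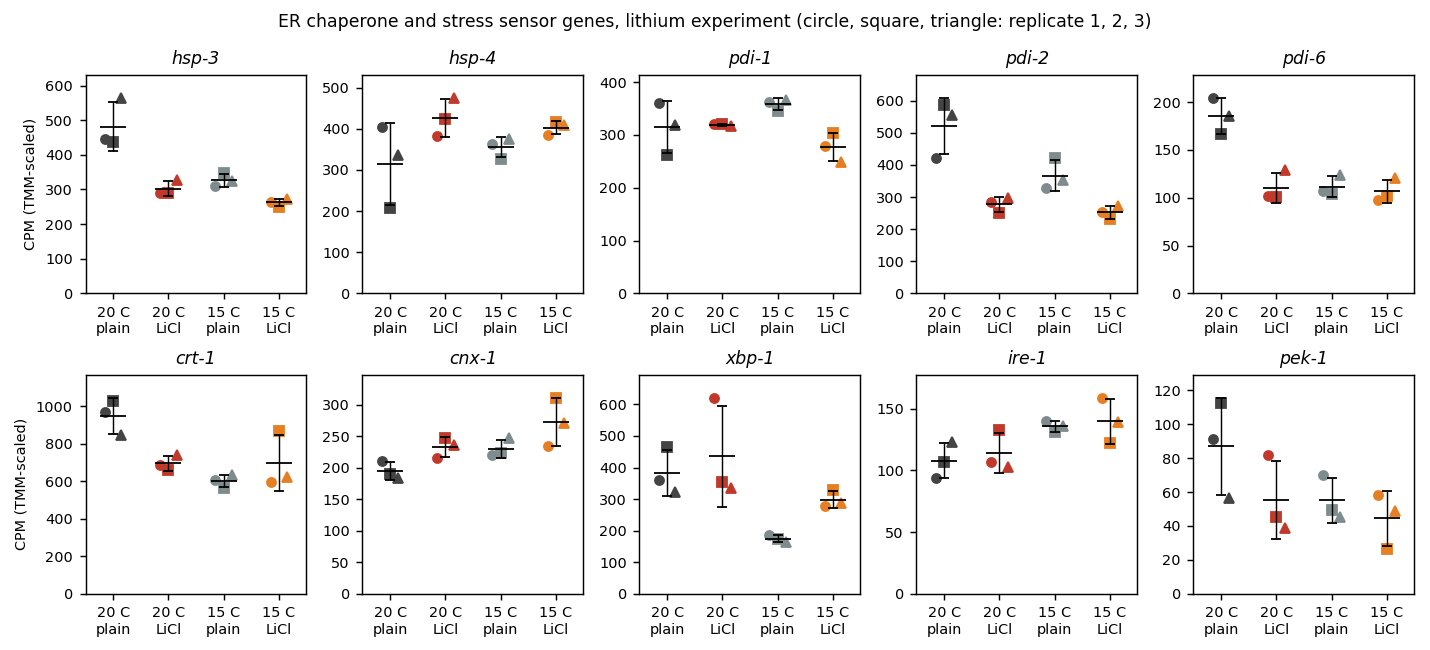
Level of each of the 10 genes in the 12 libraries of the lithium experiment, in TMM-scaled CPM (each panel from 0), with points for libraries and the mean and SD of 3 libraries per group in black. The 20 C lithium libraries of hsp-3, pdi-2 and pdi-6 lie below the 20 C plain agar libraries, and the 15 C plain agar libraries of xbp-1 (164 to 188 CPM) lie below all others.

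The 3 calls at 20 C were lost when a lithium library was left out and kept when a control library was, while the sizes moved little. Without any 1 of the 3 lithium libraries none of the 3 genes passed (adjusted p 0.0542 to 0.0993, edgeR). With the 6 libraries at 15 C left out of the fit each had an adjusted p of 0.143 (edgeR). Shares of all genes called in these fits are not given here. Over the fits that left out 1 library, the log2 difference ran from -0.74 to -0.58 for hsp-3, from -1.03 to -0.82 for pdi-2 and from -0.87 to -0.67 for pdi-6. The control library that stood apart did not carry them: without it the values were -0.74, -0.82 and -0.82, all still called (adjusted p 0.0216, 0.0237 and 0.0225, edgeR). For hsp-4 single controls did decide the value. Its controls had 404, 207 and 335 CPM against 382, 424 and 475 CPM with lithium. Its log2 difference was 0.21 without control replicate 2 and 0.66 without control replicate 1. In the latter fit it was called (adjusted p = 0.0389, edgeR), and the share of all genes called there is not given here.

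Marker genes of other tissues moved in the same comparison. Of 15 cuticle and moulting genes tested, 14 were lower with lithium at 20 C. The summed level of the list was 53.9 to 97.6 CPM against 172 to 1388 CPM in the controls. Genes of this list that were low elsewhere could pass the filter through the 20 C controls alone, which can set their direction in comparisons with them. Of 16 germline genes, 8 were higher, with summed levels of 12950 to 14430 CPM against 4085 to 9104 CPM. Of 11 intestine genes 3 were lower, of 12 neuron genes 1 was lower, of 9 muscle genes none was called, and of 5 sperm genes 1 was higher. Differences were negative in 8 intestine, 11 neuron and 8 muscle genes (medians -0.39, -0.69 and -0.18). The summed intestine level was 5658 to 7189 CPM with lithium and 4972 to 6206 CPM in the controls. Without control replicate 2 the counts of called genes were 5 lower for cuticle and moulting, 6 higher for germline, 3 lower for intestine and 0 for neuron and sperm. The neuron and muscle medians were then -0.20 and 0.11. With no filter on low counts, 4 of 18 cuticle and moulting genes and 5 of 16 germline genes were called, and in the fit of the compared groups alone no gene of these lists was. The part of these tissue markers in the differences of the ER genes was not tested.

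Other genes of ER protein handling were not all on the same side as hsp-3, pdi-2 and pdi-6. Of 11 further folding genes tested, dnj-7, an ER co-chaperone of the P58IPK type, was lower (log2 -0.86, SE 0.16, adjusted p = 0.0183, edgeR) and Y49E10.4 was higher (1.16, SE 0.26, adjusted p = 0.0267), a call that was lost without control replicate 2. Of 15 genes of ER-associated degradation, with a median log2 difference of 0.46, 3 were higher and none lower. Over all genes, 732 of 12392 were called higher. The 3 degradation genes were ufd-1, a cofactor of the segregase that extracts proteins from the membrane (0.61), the ubiquitin-conjugating enzyme gene ubc-7 (0.69) and the ubiquitin ligase gene rnf-5 (0.63), with adjusted p-values of 0.0282, 0.0335 and 0.048 in edgeR. Without control replicate 2 none of those 3 was called and the list's median was 0.31. No gene of this list was called with no filter or in the fit of the compared groups alone. DESeq2 called 8 higher, and its share of all genes in this comparison is not given here. In edgeR none of 12 genes of translocation and N-glycosylation (median 0.23), of 6 further regulators of the unfolded protein response (0.03) or of 8 HSP70 genes of other compartments (-0.29) was called. DESeq2 called 1 translocation and N-glycosylation gene higher and 1 of those HSP70 genes lower.

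Collagen-modifying enzymes, which work in the ER, were lower with lithium at 20 C in 3 of 4 cases. The lysyl hydroxylase gene let-268 had a log2 difference of -1.43 (SE 0.30), and the prolyl 4-hydroxylase alpha subunit genes phy-2 and dpy-18, whose products pair with PDI-2, had -0.96 (SE 0.26) and -0.94 (SE 0.27). Their adjusted p-values were 0.0249, 0.0368 and 0.0422 (edgeR). Without control replicate 2, in which cuticle genes were high, the values were -1.02 for let-268, -0.74 for phy-2 and -0.54 for dpy-18, and 1 of the 4 genes was called. In the fit of the compared groups alone none was. Of the abu genes, named for their activation when the unfolded protein response is blocked, 2 of 10 passed the filter, through their counts in the 20 C controls, and both were called lower, a direction that the filter can set. With no filter 9 were tested and none was called. Over 3 libraries abu-13 had 322 counts in the controls and 8 with lithium, and abu-14 had 327 and 8. Their log2 differences of -5.15 and -5.19 came to -2.70 and -2.46 without control replicate 2, when 1 of the 2 was called.

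At 15 C no member passed the test for lithium, beside 0.387% of 12392 genes called, or 48 genes. Of the 10 members, 4 had an unadjusted p under 0.05, beside 16.4% of all genes, and 5 did not overlap between groups, beside 31.1% of all genes. The gene pdi-2 had 328, 421 and 353 CPM on plain agar and 254, 232 and 272 CPM with lithium, and hsp-3 had 309, 347 and 323 CPM against 264, 251 and 273 CPM. Both were lower in every lithium library, with log2 differences of -0.54 for pdi-2 (adjusted p = 0.165, SE 0.16) and -0.31 for hsp-3 (adjusted p = 0.292, SE 0.14) in edgeR. DESeq2 called pdi-2 (-0.58, adjusted p = 0.0247), with a background of 3.65% of genes called by that tool.

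The transcript of xbp-1 lay in the other direction at 15 C. Its levels were 188, 172 and 164 CPM on plain agar and 279, 329 and 287 CPM with lithium. All lithium libraries were above all controls, yet the log2 difference of 0.77 (SE 0.23) had an adjusted p of 0.157 in edgeR's fit of all 4 groups. In the fit of the 6 libraries at 15 C alone it was called (0.72, SE 0.12, adjusted p = 0.0251, edgeR). The share of all genes called in that fit is not given here, so this call stands without a background. Over fits that left out 1 library the value stayed between 0.70 and 0.83. For pdi-1, the lithium libraries at 15 C were below the controls (278, 303 and 250 CPM against 363, 346 and 367 CPM; log2 -0.37, adjusted p = 0.235, edgeR). The other 6 members had adjusted p-values from 0.407 to 0.913. In edgeR none of the further ER lists had a called gene at 15 C. Among the marker lists 1 intestine gene, the metallothionein mtl-2, was higher (1.48, adjusted p = 0.0306, edgeR). DESeq2, where 3.65% of all genes passed, called 1 further regulator of the unfolded protein response higher and 1 lower. It also called 2 HSP70 genes of other compartments and 2 cuticle and moulting genes lower.

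Whether lithium acted differently at the 2 temperatures was tested as an interaction. No member was called, and over all genes 0% were called (0 of 12392 in edgeR, 1261 at an unadjusted p under 0.05, 2 in DESeq2). The largest members' terms were those of pdi-6 (0.69, SE 0.22, unadjusted p = 0.00758) and crt-1 (0.66, SE 0.23, unadjusted p = 0.013), both with an adjusted p of 0.481 in edgeR. The calls of hsp-3, pdi-2 and pdi-6 at 20 C are therefore not shown to be particular to that temperature.

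On plain agar, a night at 15 C went with lower xbp-1, pdi-6, crt-1 and hsp-3 than at 20 C. With 4 of 10 members called lower and none higher, the background was 7.77% of genes called lower and 9.97% called in either direction. Here too the members were chosen with earlier results known, and the count beside the background is no test. The median log2 difference was -0.54 over the members and -0.07 over all genes. The 20 C control libraries are the same ones that served in the lithium comparison at 20 C, so the results of these comparisons are not independent of each other.

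The largest difference was that of xbp-1, with 188, 172 and 164 CPM at 15 C against 362, 464 and 323 CPM at 20 C. Its log2 difference was -1.13 (SE 0.23, adjusted p = 0.0276, edgeR). For pdi-6 the levels were 107, 103.6 and 124 CPM against 204, 167 and 186 CPM (-0.74, SE 0.15, adjusted p = 0.0276), and for crt-1 they were 608, 566 and 631 CPM against 970, 1028 and 843 CPM (-0.65, SE 0.16, adjusted p = 0.0366). The level of hsp-3 was 309, 347 and 323 CPM against 445, 436 and 564 CPM (-0.56, SE 0.14, adjusted p = 0.0372). In these 4 genes every 15 C library lay below every 20 C library. The same held for pdi-2 (328, 421 and 353 CPM against 423, 587 and 555 CPM), which missed the threshold in edgeR (-0.51, SE 0.16, adjusted p = 0.0577) and passed it in DESeq2 (-0.47, adjusted p = 0.0294), where 26.2% of genes were called.

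The IRE-1 sensor's own transcript was on the opposite side of that of its substrate xbp-1. The level of ire-1 was 140, 131 and 137 CPM at 15 C and 94, 107 and 123 CPM at 20 C, and that of cnx-1 was 220, 224 and 247 CPM against 211, 190 and 184 CPM. Both were higher in all 15 C libraries and neither passed the test (0.33 and 0.24, adjusted p = 0.13 and 0.21, edgeR). Groups did not overlap for 7 of 10 members, beside 45.7% of all genes. The BiP gene hsp-4 (0.17, SE 0.20) and pdi-1 (0.19, SE 0.14) overlapped between temperatures, as did pek-1 (-0.66, SE 0.35).

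**Figure D2:**
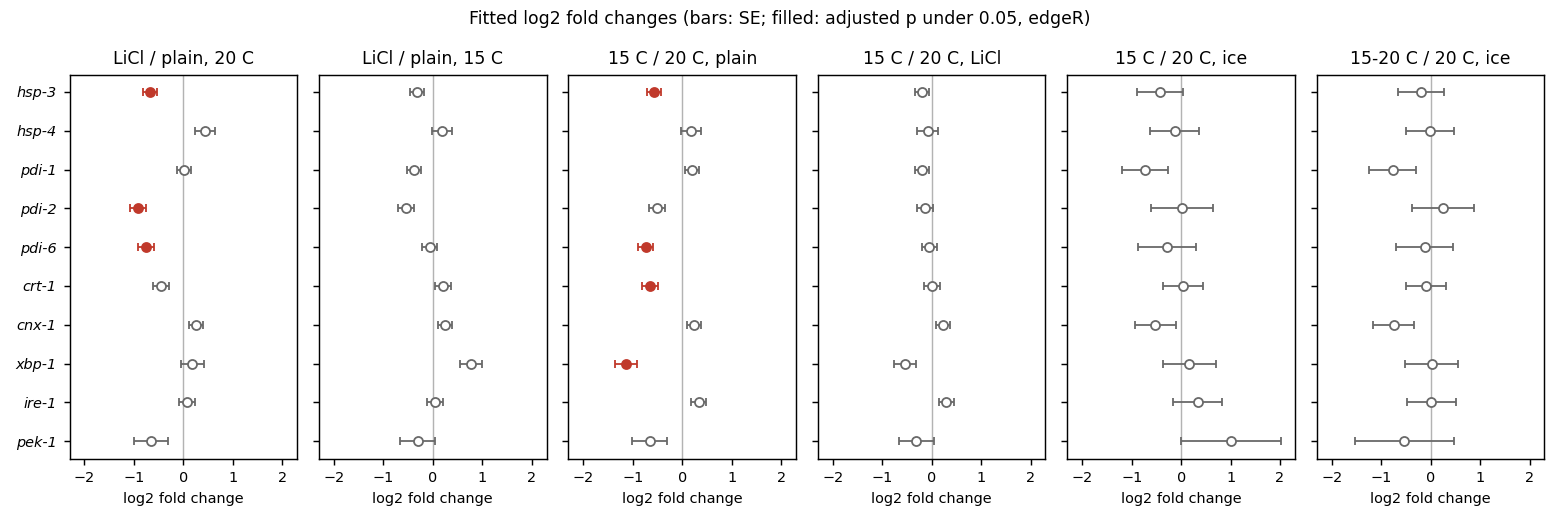
Log2 fold changes of the 10 genes in 6 comparisons, with bars of 1 SE from the edgeR fits and filled red points where the adjusted p was under 0.05. Filled points appear for 3 genes in lithium at 20 C and for 4 genes in 15 C against 20 C on plain agar, and in no ice comparison, where the SEs are wider.

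Those calls were also lost in fits with fewer libraries, while the signs held. Over the fits that left out 1 library, the log2 difference ran from -1.24 to -0.97 for xbp-1 and from -0.815 to -0.65 for pdi-6. The range was -0.74 to -0.59 for crt-1 and -0.63 to -0.45 for hsp-3. Shares of all genes called in the fits with fewer libraries are not given here. None of the 4 passed when any 1 of the 15 C control libraries was left out (adjusted p 0.0553 to 0.172, edgeR) or in the fit of these 2 groups alone (0.101 to 0.125). Without 20 C control replicate 2, pdi-6 alone was called (-0.81, adjusted p = 0.0472), while xbp-1 was at -0.97 (adjusted p = 0.0673), crt-1 at -0.59 (0.0978) and hsp-3 at -0.63 (0.0586). Without 20 C control replicate 3, hsp-3 was not called (-0.45, adjusted p = 0.0558). Of the other lists, dnj-7 was again lower (-0.74, adjusted p = 0.0278, edgeR; not called without 20 C control replicate 2), as was abu-13 (-3.48, adjusted p = 0.0468, and -1.04 without 20 C control replicate 2). In edgeR no gene of ER-associated degradation or of translocation and N-glycosylation was called, although 14 of 15 and 12 of 12 had positive differences (medians 0.24 and 0.28, and 0.16 and 0.08 without that library). Marker lists moved as well in edgeR: 3 of 15 cuticle and moulting genes, 1 of 11 intestine genes and 1 of 12 neuron genes were lower, 1 of 5 sperm genes was higher, and no germline gene was called, with 16 of 16 positive. No muscle gene was called, yet 9 of 9 were negative, as were 12 of 12 neuron genes (medians -0.57 and -0.56, beside -0.54 for the members). Without 20 C control replicate 2 no cuticle, intestine, neuron or sperm gene was called, and the cuticle median went from -2.07 to -0.37, the muscle median to -0.27 and the neuron median to -0.26. DESeq2, where 26.2% of all genes passed, called 2 degradation genes and 7 germline genes higher and 1 muscle gene lower. The part of the marker lists in the members' differences was not tested.

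Under lithium, 15 C and 20 C did not differ in any member's test. Over all genes 0% were called (0 of 12392 in edgeR, 1445 at an unadjusted p under 0.05, and 0.952% of genes called in DESeq2). The gene xbp-1 had 279, 329 and 287 CPM at 15 C and 620, 353 and 334 CPM at 20 C, without overlap (log2 -0.55, SE 0.23, unadjusted p = 0.0315, adjusted p = 0.401, edgeR), and the value was -0.20 without lithium replicate 1 at 20 C. Groups also did not overlap for hsp-3 (-0.20) and pdi-1 (-0.20), so 3 of 10 members were without overlap, beside 20% of all genes. For crt-1 the difference was 0.00 with a 95% interval from -0.31 to 0.32.

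The ratio of the 2 BiP transcripts separated the lithium libraries from the controls. On the scale of CPM per kb, the ratio of hsp-4 to hsp-3 was 1.08, 0.57 and 0.71 on plain agar at 20 C and 1.58, 1.75 and 1.73 with lithium at 20 C. At 15 C it was 1.40, 1.13 and 1.39 on plain agar and 1.74, 1.98 and 1.79 with lithium. Lithium libraries lay above the controls at both temperatures, and on plain agar the 15 C libraries lay above the 20 C libraries. The mean log2 ratio differed by 1.15 for lithium at 20 C, by 0.50 for lithium at 15 C and by 0.78 for 15 C on plain agar. Each of these had a two-sided p of 0.1 in an exact permutation test, the smallest that 3 libraries against 3 can give. Without control replicate 2 at 20 C the differences were 0.94 for lithium and 0.57 for 15 C, still without overlap. Under lithium, the temperatures differed by 0.12 (exact permutation p = 0.2). The ratio was chosen after the values of both genes had been seen, so its separation of the groups is no independent support. How many other gene pairs separate these groups is not given here. The comparisons of lithium at 20 C and of 15 C on plain agar share the 20 C controls.

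**Figure D3:**
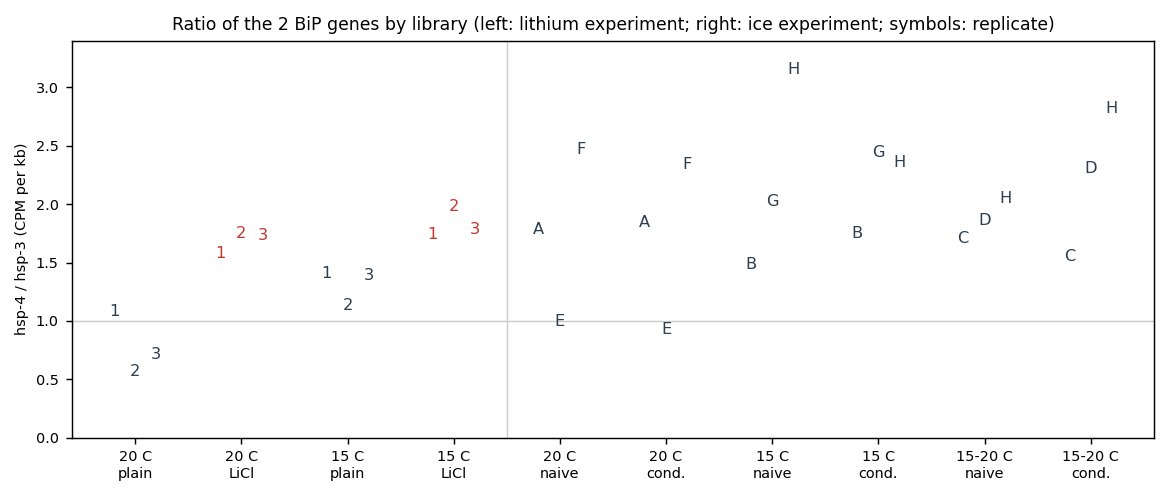
Ratio of hsp-4 to hsp-3 in CPM per kb in all 30 libraries (vertical axis from 0; digits and letters are replicate labels, red for lithium). Plain agar at 20 C gives 0.57 to 1.08 and lithium 1.58 to 1.98, and in the ice experiment both libraries of letter E lie lowest at 0.93 and 1.00.

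Across the 12 lithium-experiment libraries the members did not vary as one group. Of 45 pairs, 21 had a positive Pearson correlation of log2 CPM, with a median of -0.02. The highest were those of hsp-3 with pdi-2 (0.92) and with pdi-6 (0.89), and the lowest those of cnx-1 with pdi-2 and with hsp-3 (both -0.82), while hsp-4 and pdi-2 had -0.75. Without control replicate 2 these 5 values were 0.94, 0.87, -0.78, -0.79 and -0.64. The correlations describe libraries in 4 groups that share treatments and carry no test. Among 7367 genes of at least 10 CPM, the profiles most like that of hsp-4 were C17E7.12, R04D3.2 and Y75B12B.1 (r 0.97 to 0.98), and those most like hsp-3 were C30G12.2, F53F1.2 and oig-2 (r 0.925 to 0.934).

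In worms on ice, cultivation temperature was tested on sums of the naive and conditioned libraries of each letter, which gave every letter a single value per temperature. Letter H occurs both at 15 C and after the shift, and the fit treats its sums as separate samples. Without them no member was called and the log2 differences lay between -1.98 and 1.46, both ends from pek-1. No member was called, and 0% of 15412 genes were called in any of the 3 comparisons. At an unadjusted p under 0.05 there were 1945 genes for 15 C against 20 C, 512 for shifted against 15 C and 1855 for shifted against 20 C, and DESeq2 called 160, 1 and 873. The common biological coefficient of variation was 0.645, against 0.294 in the lithium experiment, and the members' SEs were 0.40 to 1.03 on the log2 scale. For hsp-4, the 95% interval of 15 C against 20 C therefore ran from -1.09 to 0.82 around -0.13.

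Letter E stood apart in 8 of the 10 members. Both libraries of letter E at 20 C were lowest of all 18 for hsp-4 (77.9 and 86.8 CPM, against 112 to 246 elsewhere), pdi-2 (318 and 339, against 547 to 1639) and pdi-6 (136 and 155, against at least 325). They were also lowest for xbp-1 (345 and 344 CPM, against 513 to 1084), ire-1 (23.5 and 30.04) and pek-1 (10.2 and 8.62). The same libraries were highest for pdi-1 (219 and 279 CPM, against at most 140) and cnx-1 (105 and 141, against at most 74.1). Their hsp-3 levels of 101 and 103.9 CPM lay inside the range of the others, 50.4 to 165. They likewise had the highest summed level of the translocation and N-glycosylation list (1561 and 1716 CPM, against 471 to 991) and the lowest of the other folding genes (853 and 1043, against 1581 to 3246).

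Differences between temperatures on ice moved when that letter was left out. In sums, pdi-1 had 124, 257 and 114 CPM at 20 C (letters A, E and F), 77, 133 and 86.8 CPM at 15 C (B, G and H) and 106, 111 and 72.7 CPM after the shift (C, D and H). For cnx-1 the sums were 64.8, 127 and 70.8 CPM, then 64.9, 70.5 and 47.5 CPM, then 62.3, 52.5 and 41.6 CPM. Both genes were lower in every shifted sum than in every 20 C sum (log2 -0.77, SE 0.47, and -0.75, SE 0.41; adjusted p = 0.551 and 0.506, edgeR). Without letter E the values were -0.30 and -0.39. These were the 2 members of 10 without overlap, beside 15.9% of genes. Between 15 C and 20 C no member was without overlap, beside 10.3% of genes, and between shifted and 15 C none was, beside 3.37%.

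The kinase gene pek-1 varied most on ice. Its highest library was 36.6 times its lowest, whereas crt-1 varied 1.57 times. Letter B at 15 C gave 285 and 316 CPM and letter A at 20 C 150 and 148 CPM, while the other libraries had 8.62 to 62.8 CPM. The log2 difference of 15 C against 20 C was 1.01 (SE 1.02, adjusted p = 0.678, edgeR), and it was -0.94 without letter B and 2.39 without letter A. Shifted against 15 C it was -1.54 (SE 1.03) and 0.41 without letter B. In letter B the summed muscle level (16090 and 16940 CPM, against at most 11440 elsewhere) and the summed cuticle level were also the highest. Their part in the level of pek-1 was not tested.

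**Figure D4:**
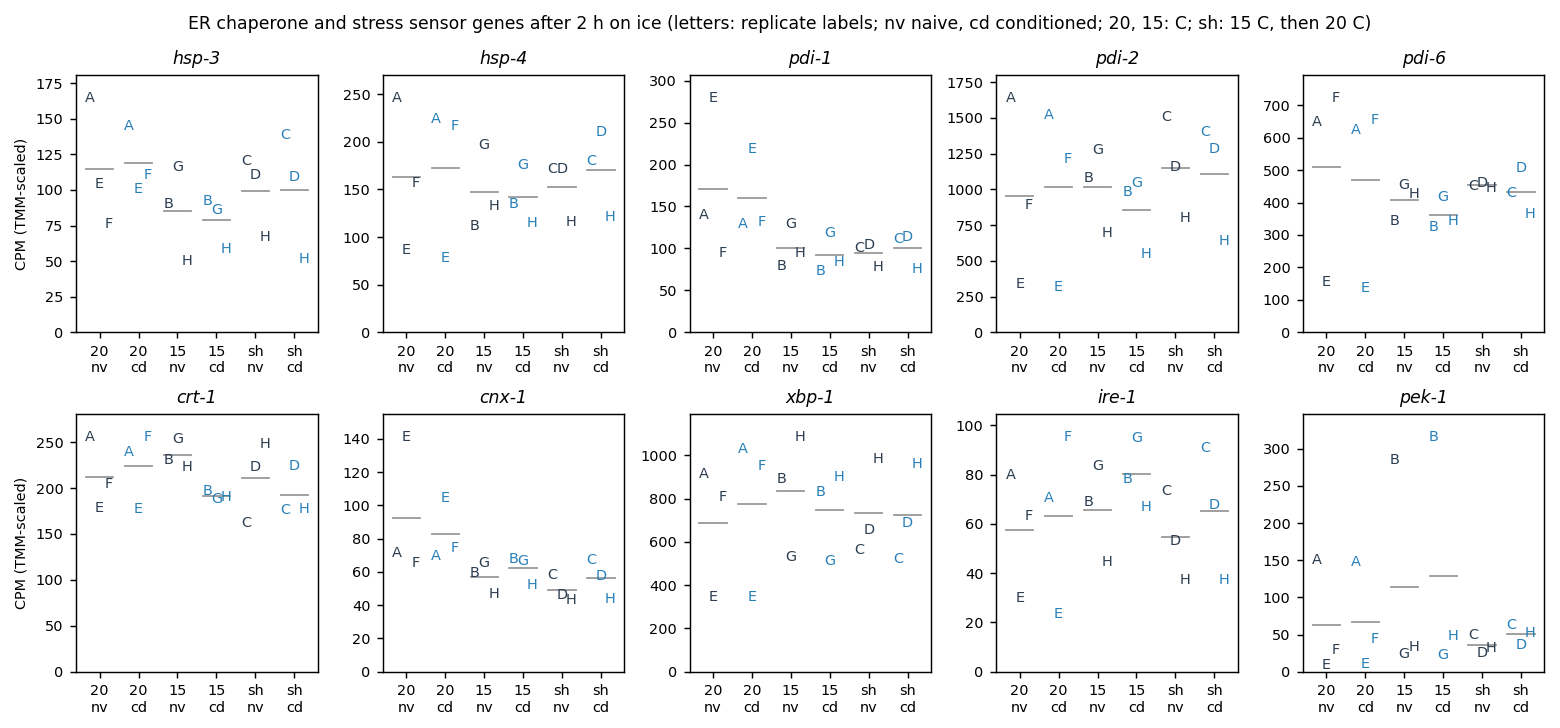
Level of each of the 10 genes in the 18 ice libraries, in TMM-scaled CPM, by cultivation (20 C, 15 C, or sh for 15 C then 20 C) and training (nv naive, cd conditioned), with replicate letters at their values and grey bars at group means. Letter E lies apart from A and F in most panels, and letter B has pek-1 at 285 and 316 CPM.

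In the 9 letter sums, 30 of 45 pairs of members had a positive correlation of log2 CPM, with a median of 0.34. The highest was that of hsp-4 with pdi-2 (0.92), a pair that had -0.75 in the lithium experiment, and the lowest that of pdi-1 with xbp-1 (-0.84). Letter E was the highest or lowest in 8 of the 10 genes, so the values describe these sums only. Without letter E, 34 of 45 pairs were positive, hsp-4 with pdi-2 had 0.85 and pdi-1 with xbp-1 had -0.55, and without both sums of letter H these were 28 pairs, 0.91 and -0.80. Profiles most like that of hsp-4 among 6655 genes were npp-16, a nuclear pore gene, algn-8, a glycosyltransferase gene of N-glycan assembly, and Y18D10A.11 (r 0.98 to 0.99), and those most like hsp-3 were F16B12.6, the COPII coat gene sec-24.1 and the malate dehydrogenase gene mdh-2 (r 0.965 to 0.968).

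Conditioning with butanone went with no called change in any member. Of 14864 genes 0% were called for the mean of the 3 temperatures and at each temperature alone (32, 60, 17 and 7 at an unadjusted p under 0.05, and 0 in DESeq2). The members' log2 differences for the mean lay between -0.12 for crt-1 (SE 0.19) and 0.26 for pek-1 (SE 0.66). This fit did not block by letter, so its SEs and p-values include the spread between letters. Within letters, conditioned and naive libraries differed by log2 values from -0.48 to 0.73 over all 90 gene and letter pairs. Conditioned libraries were higher in 7 of 9 letters for pek-1, ire-1 and cnx-1 and in 1 of 9 for pdi-6, and the remaining members were higher in 2 to 5.

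The only member without overlap between trained and naive libraries was crt-1 at 15 C. Its conditioned levels were 188, 190 and 197 CPM and its naive levels 254, 223 and 230 CPM (letters G, H and B), a log2 difference of -0.30 (SE 0.32, adjusted p = 1, edgeR). This was 1 of 10 members beside 1.93% of genes. At 20 C and after the shift no member was without overlap, beside 1.66% and 1.94% of genes.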

How the data were processed

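Both deposited tables hold raw read counts of genes. The submitters' processing notes name cutadapt, FastQC, HISAT2, HTSeq and DESeq2 and build ce11 (no order or versions given). Lithium libraries came from a directional kit and ice libraries from either of a pair of SMART-Seq kits, per the labels' protocols and the series' design text. Which kit served which ice library is not given in the sources used here. Symbols and exon lengths were taken from the Ensembl annotation of the same assembly. The 10 members and all lists were chosen with earlier results of these data known.

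Counts were fitted with edgeR 4.0.16 (R 4.3.3, limma 3.58.1) using TMM scaling, filterByExpr and the robust quasi-likelihood test, with Benjamini-Hochberg adjustment over all genes and a threshold of 0.05. The lithium experiment was 1 fit of 12 libraries (12392 genes), temperature on ice 1 fit of 9 letter sums (15412 genes) and training 1 fit of 18 libraries (14864 genes). The scripts were tested on simulated data. SE is the log2 difference divided by the root of F, and 95% intervals are 1.96 SE. Letters pair the ice libraries, since same-letter residuals correlated in 9 of 9 pairs (r 0.471 to 0.897). Precision is limited by the spread between libraries, which exceeded counting error (lowest chi-square per degree of freedom 23.3). All 10 members are named. Of a list, at most 3 called genes with the lowest adjusted p are named, and for hsp-3 and hsp-4 the 3 most similar profiles (log2 CPM with a prior count of 2). Alternatives were DESeq2 1.42.0, RLE scaling, no filter, fits of the compared groups only, unsummed ice libraries, a replicate block and each library left out. Leaving out ribosomal RNA rows, both libraries of letter E for training, and both sums of letter H for temperature, were added after seeing the data. A change of sign was counted as a reversal only for a called value or where both values exceeded their SE.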

Additional observations from a re-analysis of the deposited data

Results flagged for a closer look

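The difference of xbp-1 between conditioned and naive libraries had opposite signs in 2 groups of letters. It was flagged from among the 10 members, and how often other genes show such a pattern is not given here. In worms grown at 20 C the conditioned library was above the naive one in 3 of 3 letters, by log2 differences of 0.006 to 0.24, and at 15 C it was below in 3 of 3 letters, by -0.27 to -0.05. After the shift 1 of 3 letters was higher. The fitted differences were 0.17 (SE 0.52) at 20 C and -0.16 (SE 0.52) at 15 C, neither called (adjusted p = 1, edgeR), and the difference between temperatures was not tested.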

How the results depend on the processing

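For lithium at 20 C, 3 members were called with all libraries, 0 when only the compared groups were fitted, and 0 to 4 when 1 library was left out. For 15 C against 20 C on plain agar, 4 were called, 2 without a filter on low counts, 0 when only the compared groups were fitted, and 0 to 5 when 1 library was left out. Fewer samples or more genes tested are part of these alternatives. Shares of all genes called in them are not given here, so these counts are not results about the members alone. When only the compared groups were fitted, no gene of the other lists was called in either comparison. For lithium at 15 C, DESeq2 called 1 and the fit of the compared groups 1, against 0, and the cause was not tested. Of the 120 values of a member in a comparison, RLE scaling and leaving out ribosomal RNA rows kept all on the same side of the threshold with no reversal, and DESeq2 kept 118. With 1 library left out, 12 of 50 values in the lithium experiment and 52 of 70 in the ice experiment changed sign. None of these was a called value, and 1 of them was larger than its SE. Adding the replicate block changed no call of a member: 3 were called for lithium at 20 C, 4 for 15 C on plain agar and 0 for training. For the training mean of 3 temperatures, blocked log2 differences ran from -0.12 to 0.33 (lowest adjusted p = 0.579, edgeR). Blocked values at each single temperature are not given here. Among the lithium libraries, 13 of 18 same-number correlations exceeded 0.1, with a range from -0.316 to 0.346. Whether those numbers mark pairs is not known. Leaving letter E out of the training fits or both sums of letter H out of the temperature fit, and leaving the ice libraries unsummed, called no member. For temperature on ice, SEs were 0.40 to 0.63 for the 9 members other than pek-1 and up to 1.03 for pek-1, which limits the differences that could be detected there. For training at a single temperature they were 0.32 to 0.62 and up to 1.15 in the main fit. That fit has no block for the letter, so these SEs include the spread between letters and are not those of a paired test.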
